A study of Mus musculus with 5 samples.

Results

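Transport and glycolysis genes were compared between Foxp3 reporter-null cells and regulatory T (Treg) cells from the colon lamina propria of mice. The genes were chosen by name, as every row of the count table for the sugar and monocarboxylate carrier families Slc2a, Slc5a and Slc16a together with a list of glycolytic enzymes and pyruvate regulators. This gave 58 of the 24417 genes in the table, of which 40 were carrier-family rows and 18 were enzymes or regulators. One of the 40, Slc2a4rg-ps, is a pseudogene that shares the prefix and is not a transporter. Every library came from mice with the same pair of Foxp3 alleles, Foxp3DTR-GFP on the one hand and loxp-Thy1.1-STOP-loxp-GFP on the other. Cells sorted as Thy1.1-positive made up the 3 reporter-null libraries, and cells sorted as Foxp3-DTR-GFP-positive the 2 Treg libraries. The labels give no age, sex or treatment. They also do not tie libraries to separate animals, so a p-value reflects variation among these libraries that may be technical in part. The description of reporter-null replicate 1 joins the numbers 1 and 4.

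Glucose enters T cells through facilitative carriers of the Slc2a (GLUT) family, and hexokinase traps it by phosphorylation. Glycolysis then yields pyruvate, which is either oxidised in mitochondria or reduced to lactate by lactate dehydrogenase. Lactate leaves and enters cells with a proton through monocarboxylate carriers of the Slc16a (MCT) family, while Slc5a carriers couple the uptake of sugars, vitamins and short-chain fatty acids to sodium. Effector T cells are known for a high glycolytic flux, and Foxp3 is known to restrain glycolysis in Treg cells.

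Total counts ran from 17670420 to 22395169 per library. Levels are given as CPM, counts scaled to the size of the library with TMM factors, and fold changes as log2 of reporter-null over Treg with the standard error (SE). The sort markers followed the labels. Foxp3 stood at 75.7, 80.7 and 81.3 CPM in reporter-null replicates 1, 2 and 3, against 764 and 770.0 CPM in Treg replicates 1 and 2. Thy1, of which the reporter Thy1.1 is a form, stood at 269.3 to 300.5 CPM in reporter-null cells, against 18.8 and 21.4 CPM in Treg cells. All 7 T cell markers (Cd3e, Cd3d, Cd3g, Cd4, Cd247, Lck and Cd28) were present in every library. They summed to 6210 to 6651 CPM in reporter-null cells, against 5392 and 5420 CPM in Treg cells. Cd4 was higher, at an average of 1391 CPM in reporter-null cells and 701 CPM in Treg cells (adjusted p = 0.00796). Its log2 fold change was 0.99 (SE 0.141). Cd3e, Cd3g and Cd28 had smaller positive log2 fold changes (0.13, 0.49 and 0.37). Those of Cd3d, Cd247 and Lck were negative (-0.23, -0.17 and -0.17). Apart from Cd4, adjusted p-values of these markers ran upward from the 0.109 of Cd3g. Markers of colon epithelium differed between libraries of the same group. Their summed level over 16 genes was 41.3, 1917 and 44.8 CPM in reporter-null replicates 1, 2 and 3, against 426 and 54.1 CPM in Treg replicates 1 and 2. Reporter-null replicate 2 and Treg replicate 1 thus stood apart from the other libraries, and results are also given with both left out where that changes a call. Epcam departed from this pattern, at 45.0 and 34.3 CPM in Treg replicates 1 and 2. It stood at 1.08, 118 and 0.890 CPM in reporter-null replicates 1, 2 and 3. Epcam was thus most of the epithelial sum in Treg replicate 2. B and plasma cell markers (8 genes) summed to 394, 906 and 442 CPM in reporter-null replicates 1, 2 and 3, against 1436 and 429 CPM in Treg replicates 1 and 2. Most of each sum was Jchain. Of the B and plasma cell markers Cd79b was lower, at an average of 7.11 CPM in reporter-null cells and 19.8 CPM in Treg cells (adjusted p = 0.00460). Macrophage and monocyte markers (10 genes) summed to 24.3, 106.5 and 25.1 CPM in reporter-null replicates 1, 2 and 3, against 53.3 and 19.7 CPM in Treg replicates 1 and 2. In the same order stroma markers (8 genes) summed to 22.0, 118.3 and 16.2 CPM, against 47.2 and 11.9 CPM. Of the stroma markers Pdgfrb was higher, at an average of 8.28 CPM in reporter-null cells and 0.220 CPM in Treg cells (adjusted p = 0.00181). It had 3 and 6 counts in Treg replicates 1 and 2. All 3 reporter-null libraries and 0 Treg libraries lay above the minimum of the filter on low counts. Pdgfrb thus entered the test only through the group in which it was high. In further lists single genes also moved with the groups. Of the gamma-delta T cell markers 2 were in the table, and they summed to 40.8 to 54.4 CPM in reporter-null cells, against 3.80 to 3.88 CPM in Treg cells, most of it Blk, which averaged 44.0 CPM in reporter-null cells and 2.88 CPM in Treg cells (log2 fold change 3.92, SE 0.343, adjusted p = 0.00152). Markers of CD8 and cytotoxic T or NK cells (7 genes) were split. Klrk1 was higher, at an average of 26.8 CPM in reporter-null cells and 1.87 CPM in Treg cells (adjusted p = 0.0347), while Gzma and Prf1 were lower, with 5.09 and 2.85 CPM in reporter-null cells against 72.4 and 13.6 CPM in Treg cells (adjusted p = 0.000653 and 0.0183), and Cd8a was under 1 CPM in every library. Cd8b1 averaged 5.39 CPM in reporter-null cells and 11.4 CPM in Treg cells (adjusted p = 0.118). The sum of the 7 genes ran from 43.9 to 47.4 CPM in reporter-null cells, against 94.7 to 121.8 CPM in Treg cells. Of the granulocyte and mast cell markers (8 genes) Kit was higher, at an average of 26.2 CPM in reporter-null cells and 7.10 CPM in Treg cells (adjusted p = 0.0439), and made up nearly all of a sum of 15.7 to 39.2 CPM in reporter-null cells, against 8.42 to 8.79 CPM in Treg cells. The dendritic cell markers (7 genes) summed to 18.8 to 23.6 CPM in reporter-null cells, against 17.6 to 18.6 CPM in Treg cells. Among them Zbtb46 averaged 13.7 CPM in reporter-null cells and 15.2 CPM in Treg cells, Xcr1 6.17 CPM in reporter-null cells and 1.42 CPM in Treg cells (adjusted p = 0.108), and Clec9a and Siglech were at 0 in every library. The part of such cells in the results was not tested.

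Among the transport and glycolysis genes chosen, 3 genes differed between the populations, and for the others tested no difference was called. A gene not called was not thereby shown to be equal. Isozymes outside this choice, among them Gapdhs and Eno3, which were lower in reporter-null cells, are described further below. Hk2, the inducible hexokinase, was higher in reporter-null cells, and the lactate carrier gene Slc16a3 and the lactate dehydrogenase gene Ldhb were lower. Of the 58 genes, 42 had enough counts to be tested, and the 3 genes were those past the threshold of an adjusted p of 0.05 (7.14% of those tested), with 1 higher and 2 lower. Over all 14164 tested genes the share past the threshold was 8.79%, with 4.07% higher and 4.72% lower. The share of transport and glycolysis genes was therefore near the background. At an unadjusted p under 0.05 there were 9 of the 42 (21.4%), against 22.6% of all tested genes. The libraries of the groups did not overlap for 14 of the 42 (33.3%), against 40.8% of all tested genes. Of these, 6 were higher, against 20.3% of all tested genes, and 8 were lower, against 20.5%. Bulk libraries cannot tell fewer cells with a transcript from less RNA per cell.

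The member counts rested on single libraries. Without Treg replicate 1, and likewise without Treg replicate 2, 0 genes were higher and 1 was lower, which was Ldhb. Over all tested genes the count of 1245 then came to 341 and 405, and it was 467 without reporter-null replicate 1. It was 2035 without reporter-null replicate 2, and 2152 when Treg replicate 1 was left out as well. In the last of these fits 4 of the genes were higher and 3 lower.

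**Figure D1:**
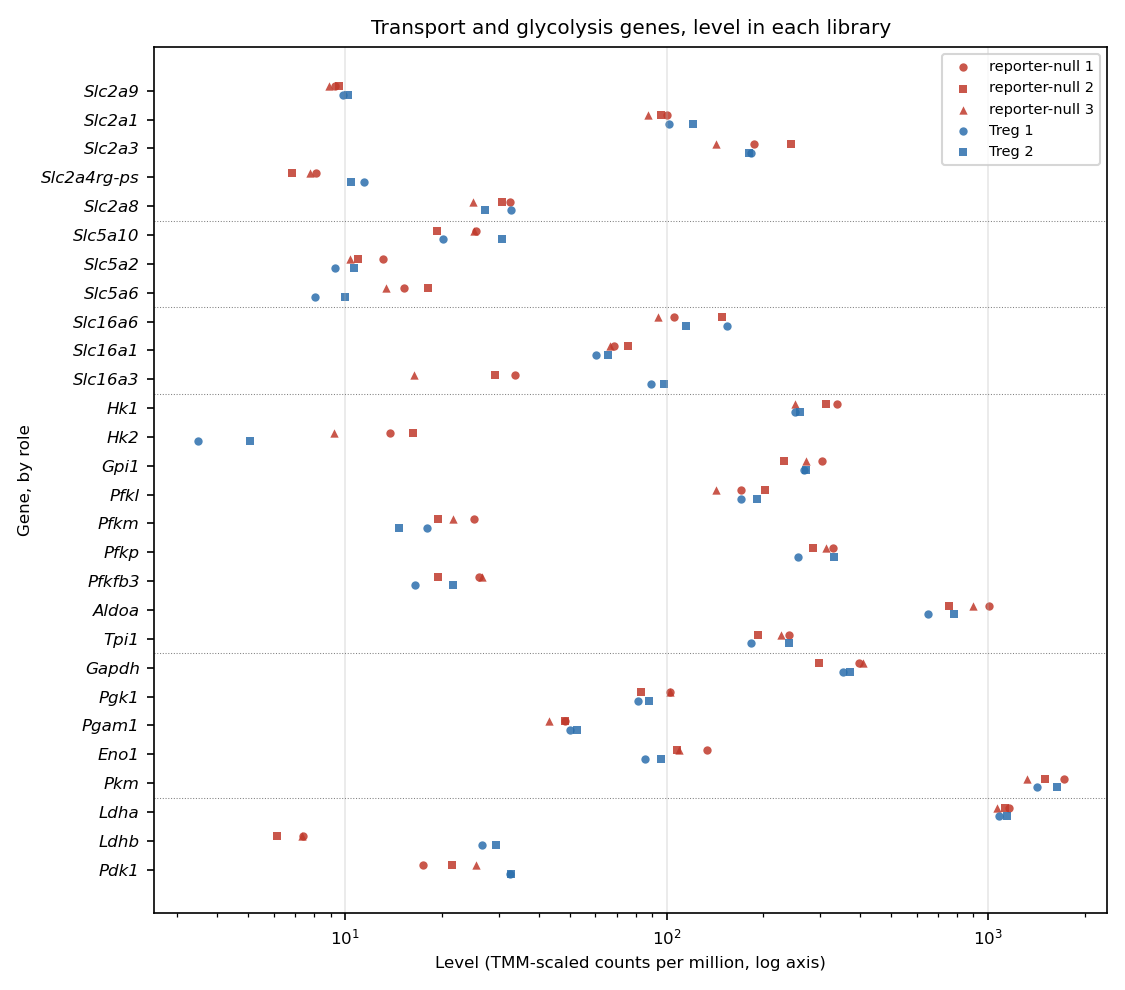
Level in each library (TMM-scaled CPM on a log axis) of 28 transport and glycolysis genes that passed the threshold or had an average log2 CPM of at least 3, ordered by role. Red symbols are the 3 reporter-null libraries and blue symbols the 2 Treg libraries. The symbols separate widely by colour for Slc16a3, Hk2 and Ldhb, while those of Ldha, Pkm and Gapdh lie together. They also separate, by less, for Slc2a9, Slc2a1, Slc2a4rg-ps, Slc5a6, Slc16a1, Pfkm, Pgam1, Eno1 and Pdk1.

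Hexokinase 2 binds the outer mitochondrial membrane and is induced when T cells are activated. Hk2 stood at 13.8, 16.2 and 9.26 CPM in reporter-null replicates 1, 2 and 3, against 3.47 and 5.04 CPM in Treg replicates 1 and 2. Every reporter-null library lay above both Treg libraries. The means were 13.1 ± 3.54 CPM (SD, n = 3) in reporter-null cells and 4.26 ± 1.11 CPM (SD, n = 2) in Treg cells, giving a log2 difference of 1.62 (SE 0.335, adjusted p = 0.0313). The call was lost without Treg replicate 1 (adjusted p = 0.213), Treg replicate 2 (0.104) or reporter-null replicate 1 (0.136), and limma-voom did not make it (0.0584). Over 16 alternatives the adjusted p ran from 0.000365 to 0.213. Without both reporter-null replicate 2 and Treg replicate 1, the libraries highest in epithelial markers, the log2 fold change was 1.20. That fit holds 1 Treg library and so has no measure of the spread among Treg libraries.

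The other hexokinases did not pass. Hk1, the constitutive form, stood at 338.9, 312.8 and 250.2 CPM in reporter-null cells, against 250.7 and 259.3 CPM in Treg cells, giving a log2 difference of 0.24 (SE 0.151, adjusted p = 0.425). Reporter-null replicate 3 lay just below the Treg libraries, so the groups overlapped. Hk3, a hexokinase of myeloid cells, had at most 27 counts in any library. Per kilobase of exon, the level of Hk1 was 35.2 ± 5.34 CPM per kb in reporter-null cells and 29.9 ± 0.707 CPM per kb in Treg cells, and that of Hk2 was 2.19 ± 0.593 CPM per kb in reporter-null cells and 0.713 ± 0.185 CPM per kb in Treg cells. Hk2 was thus the lesser form in both groups. Of the Hk1 and Hk2 counts together, Hk2 held 3.92%, 4.93% and 3.57% in reporter-null replicates 1, 2 and 3, against 1.37% and 1.91% in Treg replicates 1 and 2. This share is taken within a library and does not depend on the scaling between libraries.

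Slc16a3 encodes MCT4, a low-affinity carrier that exports lactate from glycolytic cells. It stood at 33.8, 29.3 and 16.3 CPM in reporter-null replicates 1, 2 and 3, against 89.2 and 97.7 CPM in Treg replicates 1 and 2. Every reporter-null library lay below both Treg libraries, and replicate 3 was the lowest. The means were 26.5 ± 9.07 CPM in reporter-null cells and 93.5 ± 6.04 CPM in Treg cells, giving a log2 difference of -1.82 (SE 0.301, adjusted p = 0.0214). The call was lost without Treg replicate 1 (adjusted p = 0.146) or Treg replicate 2 (0.134). Over 16 alternatives the adjusted p ran from 5.52e-15 to 0.146 and the log2 fold change from -2.09 to -1.57.

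Slc16a1 encodes MCT1, which moves lactate, pyruvate and short-chain fatty acids in either direction. Its level was 68.4, 75.7 and 66.6 CPM in reporter-null cells, against 60.5 and 65.9 CPM in Treg cells, and its log2 fold change was 0.15 (SE 0.118, adjusted p = 0.529). The ratio of Slc16a3 to Slc16a1 counts was 0.494, 0.387 and 0.245 in reporter-null replicates 1, 2 and 3, against 1.47 and 1.48 in Treg replicates 1 and 2. Slc16a3 thus had more counts than Slc16a1 in both Treg libraries and fewer in all 3 reporter-null libraries. Both carriers need a partner protein to reach the surface. Bsg, which encodes the partner basigin, had a log2 fold change of 0.00 (SE 0.160 and adjusted p 0.993). Emb, which encodes embigin, a partner of MCT1 and MCT2, stood at 997, 1264 and 1016 CPM in reporter-null cells, against 763 and 597 CPM in Treg cells (0.68, SE 0.173, adjusted p = 0.0602).

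Ldhb encodes the heart-type lactate dehydrogenase subunit, which favours the conversion of lactate to pyruvate. It stood at 7.37, 6.14 and 7.34 CPM in reporter-null replicates 1, 2 and 3, against 26.5 and 29.4 CPM in Treg replicates 1 and 2. The groups lay far apart relative to the spread within each. The means were 6.95 ± 0.699 CPM in reporter-null cells and 28.0 ± 1.99 CPM in Treg cells, giving a log2 difference of -2.01 (SE 0.176, adjusted p = 0.00144), or 4.02-fold more in Treg cells. Leaving out any single library kept the call, with adjusted p-values from 9.73e-05 to 0.0278 and log2 fold changes from -2.08 to -1.93. Over 16 alternatives the adjusted p ran from 7.12e-19 to 0.0785.

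Ldha encodes the muscle-type subunit, which favours lactate production. It stood at 1164, 1126 and 1069 CPM in reporter-null cells, against 1085 and 1144 CPM in Treg cells, and the groups overlapped. Its log2 fold change was 0.01 (SE 0.119, adjusted p = 0.982), with a 95% interval of -0.27 to 0.29. Per kilobase of exon, the level of Ldha was 338 ± 14.4 CPM per kb in reporter-null cells and 337 ± 12.7 CPM per kb in Treg cells, and that of Ldhb was 4.43 ± 0.445 CPM per kb in reporter-null cells and 17.8 ± 1.27 CPM per kb in Treg cells. Of the Ldha and Ldhb counts together, Ldhb held 0.629%, 0.543% and 0.682% in reporter-null replicates 1, 2 and 3, against 2.39% and 2.50% in Treg replicates 1 and 2. Ldhb was a small fraction of lactate dehydrogenase transcripts in both groups.

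**Figure D2:**
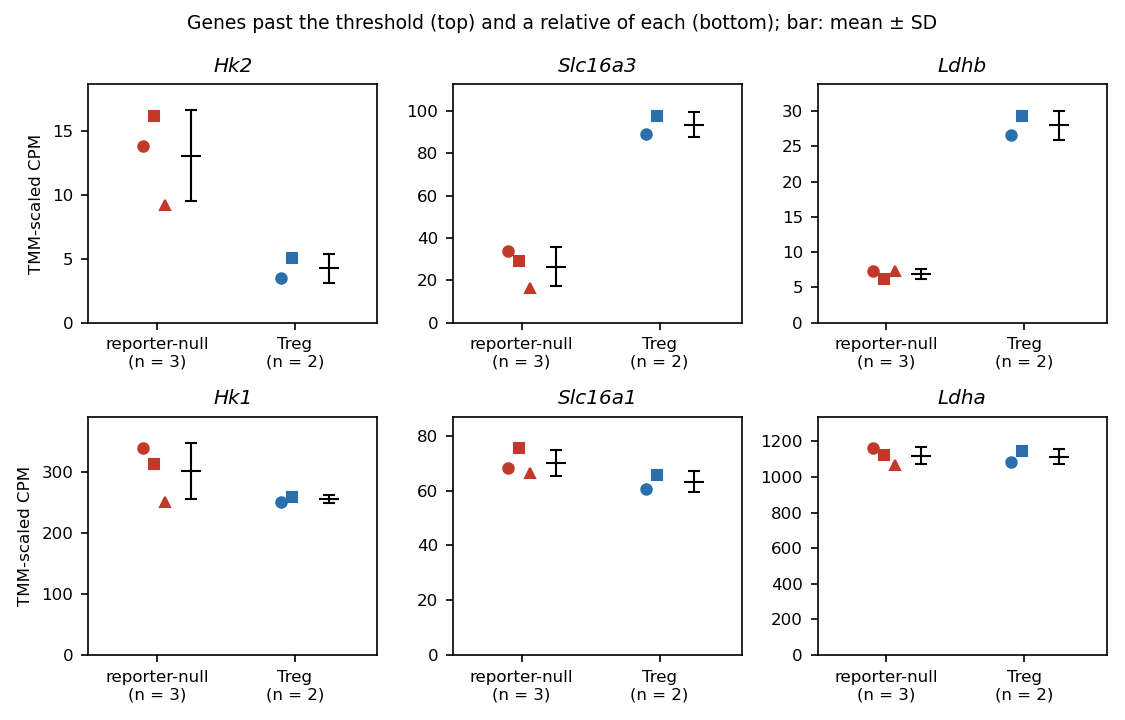
Level (TMM-scaled CPM, axes from 0) of Hk2, Slc16a3 and Ldhb in the top row and of Hk1, Slc16a1 and Ldha, a relative of each, in the bottom row. Points are libraries (3 reporter-null in red, 2 Treg in blue) and bars the mean ± SD; the groups stand apart in the top row, while in the bottom row Slc16a1 lies close and Hk1 and Ldha overlap.

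Pdk1 encodes a kinase that inhibits pyruvate dehydrogenase and so keeps pyruvate out of the mitochondrial cycle. It stood at 17.4, 21.5 and 25.4 CPM in reporter-null replicates 1, 2 and 3, against 32.6 and 32.7 CPM in Treg replicates 1 and 2. All reporter-null libraries lay below the Treg libraries, but the log2 fold change of -0.60 (SE 0.187, adjusted p = 0.107) did not pass. DESeq2 called it (adjusted p = 0.0456), and over 16 alternatives the adjusted p ran from 0.0205 to 0.362.

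The promoters of the 3 genes past the threshold are shown because HIF factors, which induce glycolysis genes at low oxygen, read ACGTG as a form of their core motif. Each window runs from 250 bases before to 50 after the annotated start on GRCm38.p6, taken from RefSeq, and lies at chr6:82774405-82774704 on the minus strand for Hk2, chr11:120948817-120949116 on the plus strand for Slc16a3 and chr6:142507908-142508207 on the minus strand for Ldhb. Capitals mark ACGTG on either strand, written CACGT when it lies on the other strand.
Hk2: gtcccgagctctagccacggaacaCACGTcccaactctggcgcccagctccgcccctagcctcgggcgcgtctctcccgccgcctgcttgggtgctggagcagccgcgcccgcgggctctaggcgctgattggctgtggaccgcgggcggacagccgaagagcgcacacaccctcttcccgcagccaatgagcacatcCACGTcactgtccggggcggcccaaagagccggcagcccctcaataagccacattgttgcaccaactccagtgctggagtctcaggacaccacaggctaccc
Slc16a3: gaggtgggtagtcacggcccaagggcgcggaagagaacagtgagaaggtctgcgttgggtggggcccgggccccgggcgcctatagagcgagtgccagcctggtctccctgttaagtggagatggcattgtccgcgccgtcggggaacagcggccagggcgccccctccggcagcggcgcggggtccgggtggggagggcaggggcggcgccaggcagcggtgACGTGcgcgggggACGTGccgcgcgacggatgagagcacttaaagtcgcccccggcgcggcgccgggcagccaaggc
Ldhb: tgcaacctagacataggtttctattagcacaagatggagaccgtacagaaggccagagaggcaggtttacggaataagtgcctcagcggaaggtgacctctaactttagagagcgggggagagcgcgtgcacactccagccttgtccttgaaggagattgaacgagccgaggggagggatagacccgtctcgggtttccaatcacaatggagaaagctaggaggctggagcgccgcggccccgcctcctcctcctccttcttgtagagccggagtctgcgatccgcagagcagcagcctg

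The Hk2 window held 2 matches, beginning at -226 and -52 relative to the start, and the Slc16a3 window held 2, at -27 and -14. The Ldhb window held 0 matches to ACGTG. Only ACGTG was searched for. The related GCGTG, which lies in the Ldhb window, was not counted in any window. Whether HIF factors bind these windows or have a part in the differences was not tested. Promoters were listed for 47 of the 58 genes, and 20 of their 61 windows (32.8%) held the motif, against 6447 of all 32851 windows (19.6%). The longer CACGTG, which contains ACGTG and is read by MYC and MLX factors, was in 9.84% of the windows of these genes and in 7.15% of all windows. These shares are descriptions and were not adjusted for base composition.

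Among the enzymes between hexokinase and pyruvate, from Gpi1 to Pkm, 0 passed the threshold with edgeR and 0 with DESeq2, and 1, Eno1, had an unadjusted p under 0.05. Aldoa, which encodes aldolase, stood at 1005, 755 and 897 CPM in reporter-null cells, against 649.8 and 783.4 CPM in Treg cells (log2 fold change 0.31, SE 0.165, adjusted p = 0.343). Eno1, which encodes enolase, stood at 133.7, 108 and 109.2 CPM in reporter-null cells, against 85.8 and 96.3 CPM in Treg cells. The groups did not overlap, and the log2 fold change was 0.36 (SE 0.140, adjusted p = 0.186). Pfkm, the muscle-type phosphofructokinase, also had every reporter-null library above both Treg libraries. It stood at 25.2, 19.4 and 21.6 CPM in reporter-null cells, against 18.0 and 14.7 CPM in Treg cells (0.44, SE 0.190, adjusted p = 0.236). Pfkm was called only with both reporter-null replicate 2 and Treg replicate 1 left out, a fit with 1 Treg library (log2 fold change 0.68). Its adjusted p ran up to 0.587 over 16 alternatives.

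Pkm, which encodes pyruvate kinase, stood at 1718, 1506 and 1324 CPM in reporter-null cells, against 1420 and 1643 CPM in Treg cells. Gapdh, the enzyme of the oxidative step, stood at 397, 297 and 407 CPM in reporter-null cells, against 354 and 373 CPM in Treg cells. In both genes the Treg libraries lay within the range of the reporter-null libraries. Log2 fold changes were -0.01 (SE 0.159) for Pkm, 0.01 (SE 0.160) for Gapdh, 0.00 (SE 0.139) for the isomerase gene Gpi1, 0.05 (SE 0.162) for the triose isomerase gene Tpi1 and 0.07 (SE 0.144) for Pfkp, and their adjusted p-values ran upward from the 0.836 of Pfkp. Pfkl, the liver-type phosphofructokinase, differed by -0.07 (SE 0.163), the kinase gene Pgk1 by 0.18 (SE 0.135) and the mutase gene Pgam1 by -0.14 (SE 0.117). Pfkfb3, which makes the sugar phosphate that activates phosphofructokinase, differed by 0.33 (SE 0.212, adjusted p = 0.423).

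For 14 of the 18 enzymes and regulators the 95% interval of the difference lay within a 2-fold change in either direction. The 4 exceptions were Hk2, Hk3, Ldhb and Pdk1. Over all tested genes 55.3% had such an interval. The median log2 fold change of the 18 was 0.06, against 0.02 for all tested genes. Their summed level was 6040, 5230 and 5244 CPM in reporter-null replicates 1, 2 and 3, against 4950 and 5574 CPM in Treg replicates 1 and 2, so the groups overlapped. Several of these genes have processed copies elsewhere in the genome. GENCODE M21 names 2 pseudogenes each for Aldoa, Gapdh, Pgam1 and Ldha and 3 for Pgk1, and how reads shared with them were counted is not given in the sources used here.

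**Figure D3:**
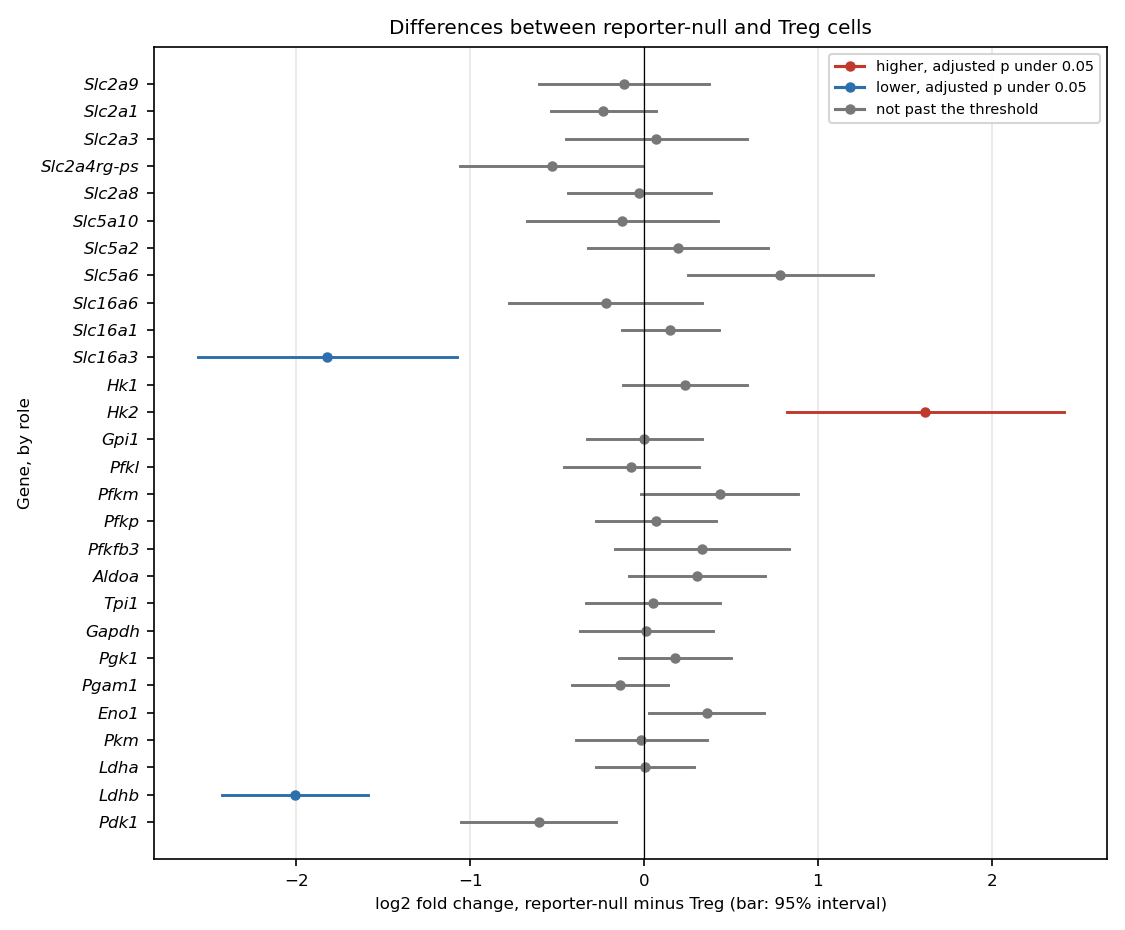
Log2 fold change of reporter-null over Treg cells for the same 28 genes, with 95% intervals from the edgeR quasi-likelihood fit. Hk2 lies to the right and Slc16a3 and Ldhb to the left of 0, and the intervals of Gpi1, Pkm, Gapdh and Ldha are centred near 0.

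Of the 13 rows of the Slc2a family, 8 were tested and 0 passed (2 had an unadjusted p under 0.05, and DESeq2 called 1, Slc2a6). Slc2a1 encodes GLUT1, the main carrier induced on activated T cells. It stood at 100.6, 96.2 and 87.6 CPM in reporter-null replicates 1, 2 and 3, against 101.9 and 120.8 CPM in Treg replicates 1 and 2. The reporter-null libraries were all lower, by less than the test could separate (log2 fold change -0.23, SE 0.127, adjusted p = 0.348, 95% interval -0.53 to 0.07). Slc2a3 encodes GLUT3, a high-affinity glucose carrier. It stood at 187, 243 and 143 CPM in reporter-null cells, against 184 and 180 CPM in Treg cells (0.07, SE 0.217, adjusted p = 0.894). The reporter-null libraries lay on both sides of the Treg libraries. Per kilobase of exon, Slc2a1 and Slc2a3 had close levels, with 27.0 ± 1.88 and 26.4 ± 6.95 CPM per kb in reporter-null cells and 31.8 ± 3.81 and 25.1 ± 0.329 CPM per kb in Treg cells.

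Slc2a6 encodes GLUT6, a hexose carrier of internal membranes. It stood at 5.25, 4.85 and 5.38 CPM in reporter-null replicates 1, 2 and 3, against 9.07 and 12.6 CPM in Treg replicates 1 and 2. Every reporter-null library was lower, with a log2 fold change of -1.07 (SE 0.259), and the adjusted p of 0.0518 lay just outside the threshold. It passed in 7 of 16 alternatives, among them DESeq2 (0.00451) and the fit that left out reporter-null replicate 2 (0.0358). It also passed with both that library and Treg replicate 1 omitted, a fit with 1 Treg library and no measure of the spread among Treg libraries. Its adjusted p ran up to 0.296 over the 16 alternatives. Slc2a8, which encodes the intracellular carrier GLUT8, differed by -0.03 (SE 0.174), and Slc2a9, which encodes a urate carrier, by -0.11 (SE 0.205). The pseudogene Slc2a4rg-ps differed by -0.53 (SE 0.221, adjusted p = 0.216).

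Of the 14 rows of the Slc16a family, 11 were tested, and 0 were higher and 1, Slc16a3, was lower. The summed level of the family was 242, 289 and 211 CPM in reporter-null replicates 1, 2 and 3, against 332 and 311 CPM in Treg replicates 1 and 2, a sum in which Slc16a3 is a large part. Slc16a6, which encodes MCT7, stood at 105.1, 148.4 and 93.9 CPM in reporter-null cells, against 154.5 and 115.2 CPM in Treg cells (log2 fold change -0.22, SE 0.230, adjusted p = 0.660). Its exons overlap those of Amz2 and Arsg on the opposite strand in GENCODE M21. Slc16a10, an aromatic amino acid carrier, stood at 7.15, 3.60 and 9.39 CPM in reporter-null cells, against 2.55 and 5.18 CPM in Treg cells (0.79, SE 0.512, adjusted p = 0.433). Slc16a11 was scarce, with 35, 38 and 26 counts in reporter-null replicates 1, 2 and 3, against 9 and 5 counts in Treg replicates 1 and 2. The reporter-null libraries were all higher (2.16, SE 0.696, adjusted p = 0.118), and it passed with DESeq2 (0.0376). It also passed with both reporter-null replicate 2 and Treg replicate 1 left out, a fit with 1 Treg library. Over 16 alternatives its adjusted p ran up to 0.373. All 3 reporter-null libraries and 1 of the Treg libraries lay above the minimum of the filter on low counts, so Slc16a11 entered the test through the reporter-null libraries.

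Of the 13 rows of the Slc5a family, 5 were tested and 0 passed (1 had an unadjusted p under 0.05, and DESeq2 called 1, Slc5a6). Slc5a6 encodes the sodium-dependent carrier of biotin and pantothenate. It stood at 15.2, 18.1 and 13.4 CPM in reporter-null replicates 1, 2 and 3, against 8.04 and 9.99 CPM in Treg replicates 1 and 2. Every reporter-null library was higher (log2 fold change 0.79, SE 0.224, adjusted p = 0.0868). DESeq2 called it (0.0248), and over 16 alternatives the adjusted p ran up to 0.381. Slc5a10, which encodes a carrier of mannose and fructose, differed by -0.13 (SE 0.231), and Slc5a2, which encodes the renal glucose carrier SGLT2, by 0.20 (SE 0.218). The exons of Slc5a6 overlap those of Atraid, the exons of Slc5a10 those of Grap and Fam83g, and the exons of Slc5a2 those of BC017158, all on the opposite strand in GENCODE M21. Without the strand setting of the counting, which the sources used here do not give, reads of these pairs cannot be told apart. In the same annotation the exons of Hk2, Slc16a3 and Ldhb overlap no other gene. Those of Hk1, Hk3, Gpi1, Pfkp, Aldoa, Tpi1, Gapdh and Slc2a1 overlap another gene on the opposite strand. Those of Pfkm overlap Gm26513 on the same strand and Senp1 on the opposite strand, and those of Pkm overlap Gm49759 on the same strand.

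Slc5a8, Slc5a1 and Slc16a5 were high in single libraries. Slc5a8 encodes a sodium-coupled carrier of short-chain fatty acids and lactate that is known from colon epithelium. It stood at 0.487, 23.5 and 0.178 CPM in reporter-null replicates 1, 2 and 3, against 2.66 and 0.555 CPM in Treg replicates 1 and 2. Slc5a1, which encodes the intestinal glucose carrier SGLT1, had 1, 328 and 0 counts in reporter-null replicates 1, 2 and 3, against 50 and 0 counts in Treg replicates 1 and 2. Slc16a5 stood at 1.95, 9.22 and 0.801 CPM in reporter-null cells, against 1.90 and 0.462 CPM in Treg cells. In Slc5a8 and Slc5a1, reporter-null replicate 2 was highest and Treg replicate 1 second, as in the summed epithelial markers. The summed macrophage and monocyte, stroma and erythroid markers also ranked these libraries first and second, so the pattern was not particular to the epithelial list. In Slc16a5 reporter-null replicate 2 was also highest. For Slc5a8 the log2 fold change was 2.33 (SE 2.56, adjusted p = 0.692) over all libraries and -2.28 without reporter-null replicate 2. It was -0.75 when Treg replicate 1 was left out as well. The log2 fold change of Slc16a5 was 1.76 (SE 1.23, adjusted p = 0.485) over all libraries. It was 0.21 without reporter-null replicate 2, 3.09 without Treg replicate 1, 1.07 without Treg replicate 2 and 1.56 when reporter-null replicate 2 and Treg replicate 1 were both left out. The part of epithelial or other cells in these values was not tested.

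**Figure D4:**
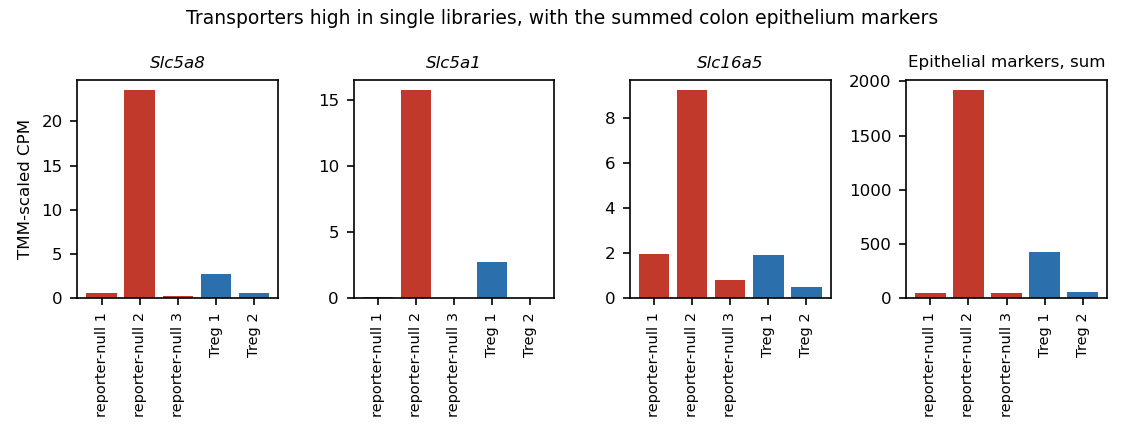
Level (TMM-scaled CPM, bars from 0) in each of the 3 reporter-null and 2 Treg libraries of Slc5a8, Slc5a1 and Slc16a5, beside the sum of 16 colon epithelium markers. Reporter-null replicate 2 is the highest bar in all 4 panels, at 1917 CPM for the marker sum.

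The other 16 genes had too few counts to be tested. Of these, 12 had counts, with at most 32 in any library. These were Slc2a2, Slc2a4, Slc2a5, Slc2a7, Slc2a12, Slc5a4a, Slc5a4b, Slc5a5, Slc5a9, Slc5a11, Slc16a9 and Slc16a14. Slc5a3, Slc5a7, Slc5a12 and Slc16a8 had 0 counts in all 5 libraries, which allows levels of up to 0.133 to 0.163 CPM by a limit of 3 counts per library, for counting error only. Slc5a3, a carrier of myo-inositol, shares exons with Mrps6 on the same strand in GENCODE M21, and how such reads were assigned is not given in the sources used here. The 13 tested genes at low levels had 0 to 490 counts per library, and 0 of them passed. Beside those described, they were Slc2a10, Slc2a13, Slc16a4, Slc16a7, Slc16a12, Slc16a13 and Hk3. With Treg replicate 1 and reporter-null replicate 2 both left out, Hk3 was called (adjusted p = 0.00644), in a fit where the Treg group was 1 library with 0 counts of Hk3, and its adjusted p ran up to 0.941 over 15 alternatives.

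Genes around glycolysis were compared in 10 further lists, which are described by their counts beside the 8.79% of all tested genes. Counts from other fits have other backgrounds. DESeq2 called 16.4% of all tested genes, limma-voom with quality weights 15.2% and limma-voom 8.57%. The share was 15% without reporter-null replicate 2 and 3.32% without reporter-null replicate 1. Of 18 further glycolysis isozymes and regulators, 1 was higher and 2 were lower (5 called by DESeq2). Gapdhs, the sperm-type glyceraldehyde phosphate dehydrogenase, stood at 139, 114 and 140 CPM in reporter-null cells, against 290.5 and 316 CPM in Treg cells (log2 fold change -1.21, SE 0.131, adjusted p = 0.00287). Its exons overlap those of Tmem147os on the opposite strand. Eno3, the muscle-type enolase, was lower (-1.35, SE 0.240, adjusted p = 0.0184), and Galm, which interconverts the anomers of galactose and glucose, was higher (0.91, SE 0.152, adjusted p = 0.0143). Gapdhs kept its call without any single library (0.000198 to 0.0449), with a range of 1.97e-16 to 0.0861 over all 16 alternatives. Eno3 lost it without Treg replicate 1 (0.126), Treg replicate 2 (0.126) or reporter-null replicate 1 (0.111), with a range of 4.07e-05 to 0.184 over 16 alternatives. Galm lost it without Treg replicate 1 (0.132), Treg replicate 2 (0.0510) or reporter-null replicate 1 (0.0752), with a range of 3.27e-07 to 0.162.

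Among 9 genes of transporter partners and trafficking 0 were higher and 1 was lower. This count depended on the tool, with 4 called by DESeq2, 3 by limma-voom with quality weights and 2 by limma-voom, and 3 were called when reporter-null replicate 2 was omitted. Arrdc4, an arrestin-domain protein that limits glucose uptake, stood at 16.1, 24.2 and 19.4 CPM in reporter-null replicates 1, 2 and 3, against 66.5 and 70.5 CPM in Treg replicates 1 and 2. The groups stood well apart (log2 fold change -1.78, SE 0.182, adjusted p = 0.00251), and the call held without any single library (1.68e-05 to 0.0379), with a range of 3.47e-19 to 0.0728 over all 16 alternatives. Its relative Txnip, which removes GLUT1 from the surface, differed by -0.32 (SE 0.119, adjusted p = 0.171), with 610, 605 and 632 CPM in reporter-null cells against 712 and 822 CPM in Treg cells.

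Among 16 genes of other sugar entry and hexosamine synthesis 0 were higher and 2 were lower (3 called by DESeq2). Slc45a4, a solute carrier of the sucrose transporter family, stood at 29.1, 29.5 and 24.9 CPM in reporter-null cells, against 70.2 and 73.9 CPM in Treg cells (-1.37, SE 0.124, adjusted p = 0.00152), and held without any single library (0.000106 to 0.0310; 1.05e-16 to 0.0666 over all 16 alternatives). Galk1, the kinase that starts galactose use, was lower (log2 fold change -0.81, SE 0.151, adjusted p = 0.0215), a difference that no longer passed once Treg replicate 1 (0.151), Treg replicate 2 (0.114) or reporter-null replicate 1 (0.106) was omitted, with a range of 0.000176 to 0.164 over 16 alternatives.

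Among 17 hypoxia response genes 1 was higher and 2 were lower (5 called by DESeq2). Bnip3, a mitophagy receptor, stood at 5.58, 4.51 and 5.34 CPM in reporter-null cells, against 14.7 and 19.4 CPM in Treg cells (-1.73, SE 0.234, adjusted p = 0.00656, and 0.0803 without Treg replicate 2, with a range of 1.78e-08 to 0.140). Its exons overlap those of Gm45507 on the opposite strand. P4ha1, a collagen prolyl hydroxylase, was lower (-1.18, SE 0.244, adjusted p = 0.0374), and its call held only without reporter-null replicate 2 among the single-library omissions (0.00369). Omitting Treg replicate 1 gave 0.0728, omitting Treg replicate 2 gave 0.197, omitting reporter-null replicate 1 gave 0.129 and omitting reporter-null replicate 3 gave 0.0574 (with a range of 4.54e-08 to 0.210). Plod2, a collagen lysyl hydroxylase, stood at 20.0, 12.2 and 29.2 CPM in reporter-null cells, against 2.82 and 0.878 CPM in Treg cells (3.47, SE 0.672, adjusted p = 0.0388). It too passed only without reporter-null replicate 2 among those omissions (0.00430). Omitting Treg replicate 1 gave 0.0572, omitting Treg replicate 2 gave 0.107, omitting reporter-null replicate 1 gave 0.112 and omitting reporter-null replicate 3 gave 0.0615. Plod2 was also not called by limma-voom (0.0535) or with no filter on low counts (0.0598), and it passed in 8 of 16 alternatives (range 1.97e-35 to 0.188).

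Among 26 glycolysis regulators 1 was higher and 0 were lower. DESeq2 called 4, limma-voom with quality weights 4 and limma-voom 2. Omitting reporter-null replicate 2 gave 5, and omitting reporter-null replicate 1 gave 0. The higher gene was Tsc2, which with Tsc1 inhibits mTORC1 (0.79, SE 0.146, adjusted p = 0.0205), and the call was lost without Treg replicate 1 (0.168), Treg replicate 2 (0.116) or reporter-null replicate 1 (0.0993), with a range of 6.97e-05 to 0.168. Exons of Tsc2 overlap those of Pkd1 on the opposite strand. Hif1a, the oxygen-regulated factor subunit, stood at 801, 834 and 848 CPM in reporter-null cells, against 824 and 1116 CPM in Treg cells (-0.23, SE 0.155, adjusted p = 0.456). Myc stood at 98.5, 53.7 and 109 CPM in reporter-null cells, against 103 and 179 CPM in Treg cells (-0.70, SE 0.393, adjusted p = 0.392). The groups overlapped for Hif1a and for Myc. They did not overlap for 10 of the 26 regulators (6 higher and 4 lower), against 40.8% of all tested genes. At an unadjusted p under 0.05 there were 6 of the 26, against 22.6% of all tested genes.

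Of the genes for pyruvate entry and oxidation 0 of 14 passed (1 at an unadjusted p under 0.05), and of the pentose phosphate pathway 0 of 8 (0 unadjusted). The counts were 0 of 6 for gluconeogenesis (1 unadjusted), 0 of 11 for glycogen (3 unadjusted) and 0 of 20 for proliferation (1 unadjusted). DESeq2 called 1 glycogen gene, 1 proliferation gene and 0 in the other lists of this set. The median log2 fold change was 0.14 for pyruvate entry and oxidation, -0.06 for the pentose phosphate pathway, -0.09 for gluconeogenesis, 0.13 for glycogen and 0.07 for proliferation, against 0.02 for all tested genes.

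**Figure D5:**
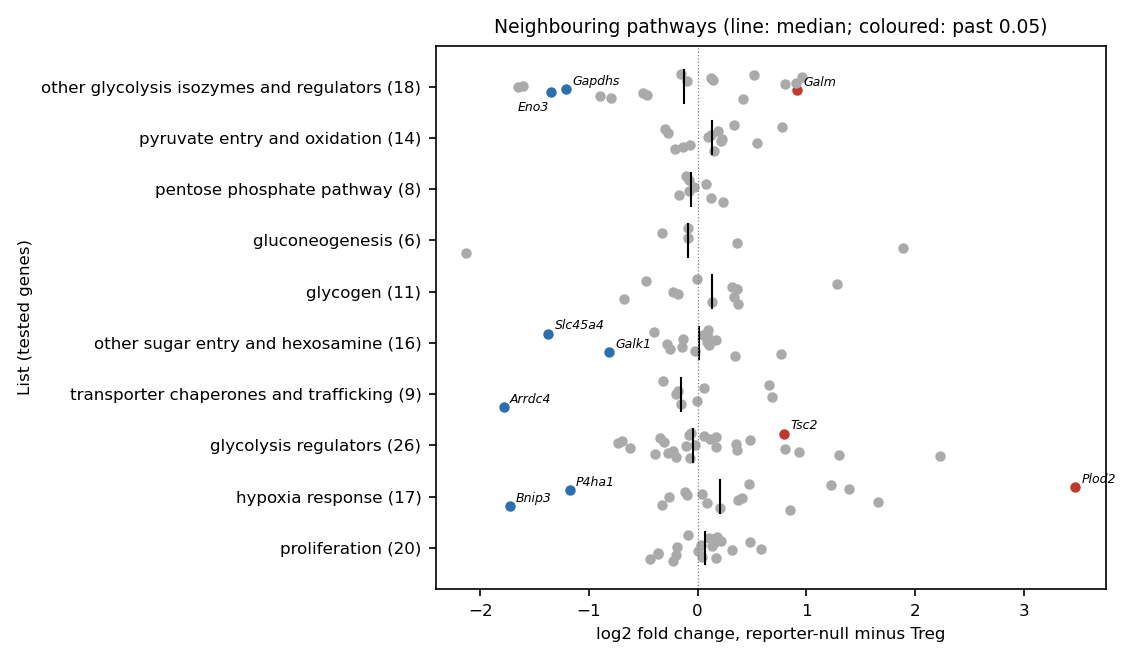
Log2 fold change of reporter-null over Treg cells for each tested gene of the 10 further lists, with the number of tested genes in parentheses and a black line at the median. Genes past an adjusted p of 0.05 are coloured and named, and medians lie between -0.15 and 0.21.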

How the data were processed

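RNA was measured in 5 libraries. Per the labels' protocols, polyadenylated RNA of TRIzol-lysed cells was amplified with SMART-Seq v4 and sequenced in pairs on an Illumina HiSeq. The authors deposited raw counts per gene symbol and did not normalise them, as the whole-number values in the deposited table show. The submitters' processing notes name DESeq with no role; aligner, build, annotation and strand setting: not given in the sources used here. SMART-Seq v4 adds no molecular identifiers, so limits cover counting error only.

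Of 24421 rows, 4 named NA (0.0034% to 0.00492% of a library's counts) were left out. Genes were kept by filterByExpr (minimum count 10, total 15). Groups were compared with TMM factors and edgeR 4.0.16 (robust quasi-likelihood F test, R 4.3.3), with Benjamini-Hochberg adjustment over all 14164 genes and a threshold of 0.05. The SE is the log2 fold change divided by the square root of F, and 95% intervals use the fit's degrees of freedom. The common biological coefficient of variation was 0.401. No replicate pair agreed within sampling noise (chi-square per degree of freedom 16.9 to 73.8). Levels per kilobase use merged exon lengths of GENCODE M21, which may not be the authors' annotation. Steps were tested on simulated data.

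Members and lists were chosen with earlier results of these data known. The rule named every gene past the threshold, other tested members whose average log2 CPM reached 3, up to 4 called genes per list, Foxp3 and Thy1; 1 of these members is not reported here. Slc2a6, Slc16a5, Slc16a10, Slc16a11, Slc5a1, Slc5a8, Hk3, Bsg, Emb, Txnip, Hif1a and Myc lie outside this rule and were picked after their values were seen. The alternatives tried were DESeq2 1.42.0, voom of limma 3.58.1 (plain and with quality weights), RLE or upper quartile factors, other filters, thinned counts, stricter thresholds, omitted libraries and replicate blocks.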

Additional observations from a re-analysis of the deposited data

How the results depend on the processing

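The 1 higher and 2 lower genes among the members were the count with RLE factors, with no filter, with thinned counts, with a 2-fold minimum, without reporter-null replicate 3 and with the description-number block. Slc2a6 was also lower with upper quartile factors, a minimum of 1 CPM, both limma-voom fits, DESeq2, without reporter-null replicate 2 and without this library and Treg replicate 1. DESeq2 called 3 higher and 4 lower among 2323 genes in all, and limma-voom with quality weights 2 and 4 among 2158. Limma-voom called 0 higher, since Hk2 lost its call. At an adjusted p under 0.01 there were 0 higher and 1 lower, Ldhb, among 489, and the 2-fold minimum left 734 genes in all. With 1 library left out, members called higher ran from 0 to 1 and lower from 1 to 3, and genes called in all from 341 to 2035; a group left with 1 Treg library is assumed to vary like the other group. With Treg replicate 1 and reporter-null replicate 2 both left out there were 4 higher members and 2152 genes. A replicate block by the number in the titles left 24 genes, with 0 members higher and 0 lower, and a block by the number in the descriptions left 1399, in which Plod2 was not called (adjusted p = 0.188) and 5 glycolysis regulators were. The deviations of same-numbered libraries correlated at -0.51 and -0.60 by title number and at 0.60 and 0.48 by description number; nothing in the labels says that either number marks a shared animal, and with 2 Treg libraries these values are not independent. The causes of these changes were not tested. Hk2, Slc16a3 and Ldhb kept their direction in all 16 refits. Among members past the threshold in neither fit, the sign of the fold change varied over the refits for 17, and 6 members not called were called in at least 1 refit. Summed levels by role moved by less than their SD when CPM were taken without TMM factors, and a prior count of 0.5 kept the direction of Hk2, Slc16a3 and Ldhb. The depth of these libraries limits genes with few counts, such as Slc16a11 and Hk3.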
